A study of Mus musculus with 3 samples.

Results

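The nuclear receptors are a superfamily of transcription factors, and 44 of their genes were found by symbol among the 22378 genes listed for each of 3 mouse mammary RNA libraries. The symbols taken were the Nr series, the retinoic acid receptors (Rar), retinoid X receptors (Rxr), peroxisome proliferator-activated receptors (Ppar), thyroid hormone receptors (Thr), Ror and Esrr genes, and Vdr, Esr2, Hnf4a and Hnf4g. The receptors of estrogen (alpha), progesterone and androgen were outside this rule. Choice was by name and used no measured value. Of the 44 genes, 43 had a value with status OK in every library, and the exception was Nr3c1.

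RNA was sequenced from cells of FVB-background mice, in 1 library per group. The lung-colonizing cell library (LCC) came from mammary cells of mice carrying green fluorescent protein, or of FVB mice stained with the dye DDAO. They had been injected into a vein of FVB recipients and were sorted by fluorescence from the dissociated lungs after 1 day. This library pooled 15 experiments, 42 lungs and 455880 cells, and per experiment 8 female donors served 4 recipients. The E-Int29-Hi library was made from mammary cells in a gate of intermediate EpCAM and high CD29 (cell surface adhesion proteins), with 3 samples combined. Its label calls it enriched for colonizing cells. The MG library was made from mammary gland left undissociated, also from 3 combined samples. The sources used here give no age, time of collection or hormonal stage. Each group was a pool with no replicate, so no difference below has an error or a test, and each describes these libraries alone. In pools of this kind, fewer cells of a type and less RNA per cell cannot be told apart.

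Most nuclear receptors bind a small fat-soluble ligand, such as a steroid, retinoid, thyroid hormone, vitamin D, oxysterol or fatty acid, and then exchange corepressors for coactivators on DNA. Many bind as heterodimers with a retinoid X receptor, steroid receptors bind as homodimers, and some orphan receptors bind as monomers. In the mammary gland they are known for governing growth and differentiation of the epithelium, its response to hormones, and lipid handling in fat and secretory cells.

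Levels are FPKM, that is sequenced fragments per kilobase of a gene and per mapped total, and can be compared between genes. Of the 44 genes, 29 reached 1 FPKM in at least 1 library, 24 reached it in all 3, and 15 stayed below it throughout. Members at 1 FPKM or more numbered 25 for LCC, 26 for E-Int29-Hi and 28 for MG. Summed over all 44, receptor FPKM came to 498.7 for LCC, 774 for E-Int29-Hi and 539 for MG, or 0.132%, 0.234% and 0.185% of each library's total. The receptor sum was therefore highest in E-Int29-Hi, and the NR4A genes made up 385 FPKM of it there, against 141 in LCC and 189 in MG.

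**Figure D1:**
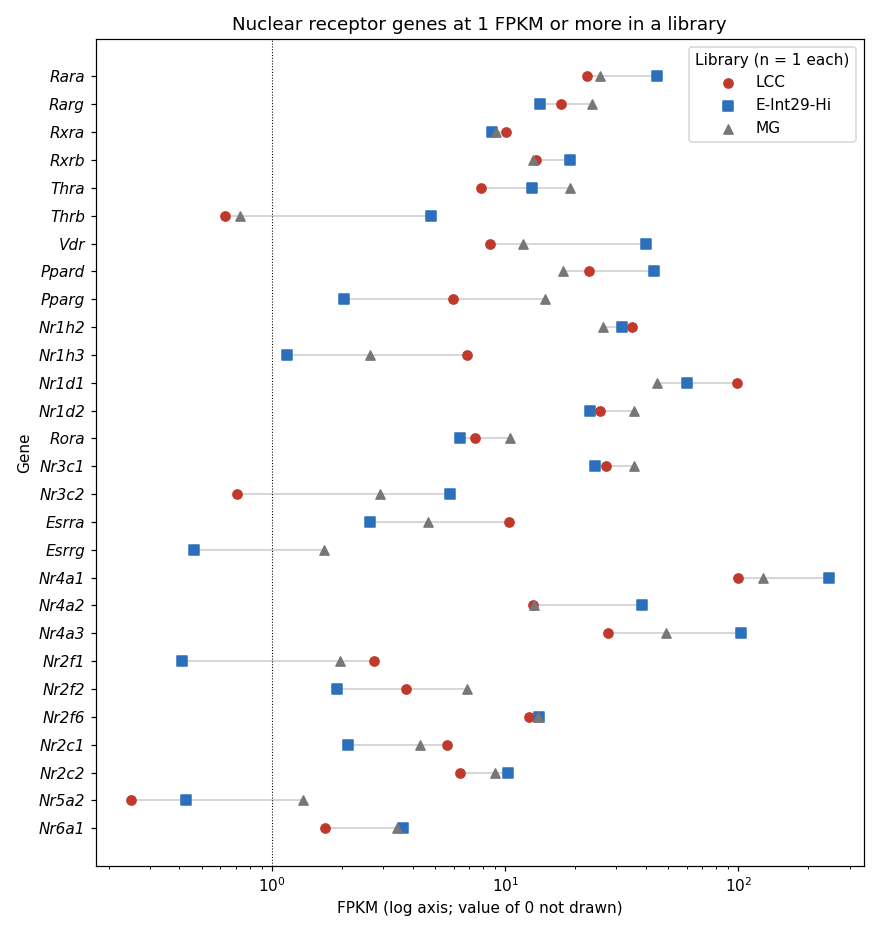
FPKM (horizontal log axis) of 28 nuclear receptor genes that reached 1 FPKM in a library, 1 point per library, with grey lines joining the lowest and highest value of a gene. Nr4a1 reaches farthest right, followed by Nr4a3 and Nr1d1. Thrb, Vdr and Nr3c2 show E-Int29-Hi farthest to the right, and Esrrg has no LCC point because it was listed at 0 there.

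Differences between libraries were taken as log2 ratios of FPKM + 1. This shrinks differences of low genes. A gene entered a comparison if it reached 1 FPKM in either library, and was called at a 4-fold difference (2 on that scale), with a second count at 2-fold. Between LCC and E-Int29-Hi, 0 of 26 members were called higher and 1, Vdr, lower at 4-fold, where 4.64% and 4.35% of all 12147 genes were called. At 2-fold, 5 were higher (Esrra, Nr1h3, Nr2c1, Nr2f1 and Pparg) and 7 lower (Nr3c2, Nr4a1, Nr4a2, Nr4a3, Thrb and Vdr among them), or 19.2% and 26.9% of the members. The shares over all genes were 21.2% and 14.1%. The 2-fold counts were 3 higher and 10 lower with median ratio scaling of the libraries, beside 14.9% and 18.4% of all genes. With TPM, which gives each library the same FPKM sum, they were 5 and 12 of 30 that then entered, beside 19.3% and 19.9% of all genes. The median change of the members was -0.30, against 0.26 over all genes.

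Between LCC and MG, 0 of 27 members were called in either direction at 4-fold, where 1.33% of 12443 genes were higher and 2.63% lower. At 2-fold, Esrra, Nr1d1 and Nr1h3 were higher in LCC (3 members, 11.1%, against 10.9% of all genes). Esrrg, Nr3c2, Pparg and Thra were lower (4 members, 14.8%, against 12.8% of all genes), Esrrg being listed at 0 in LCC. These shares were near the background. With TPM 0 members were higher and 10 lower, of 31 that then entered, beside 6.13% and 27.1% of all genes. The median change was -0.41 over the members and 0.01 over all genes.

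Between E-Int29-Hi and MG, 0 of 28 members were called higher and 1, Pparg, lower at 4-fold, where 2.6% and 3.97% of 12430 genes were called. At 2-fold, 5 members were higher in E-Int29-Hi (Nr4a2, Nr4a3, Ppard, Thrb and Vdr) and 3 lower (Nr2f1, Nr2f2 and Pparg). That is 17.9% and 10.7% of the members, beside 8.99% and 15.5% of all genes. Median ratios gave 8 higher and 2 lower, beside 13.8% and 11.1% of all genes. TPM gave 4 higher and 7 lower of 31, beside 8.08% and 25.8%. The median was 0.04 over the members and -0.23 over all genes. The comparisons share libraries, so a low value in E-Int29-Hi enters both comparisons with it.

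All genes together were shifted by 0.26 for LCC against E-Int29-Hi and by -0.23 for E-Int29-Hi against MG. Changes are therefore also given relative to that shift where it matters, and shares within a receptor branch, which no scaling of a library alters, are given beside them. None of the changes of 2-fold or more changed sign under median ratio scaling or TPM.

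**Figure D2:**
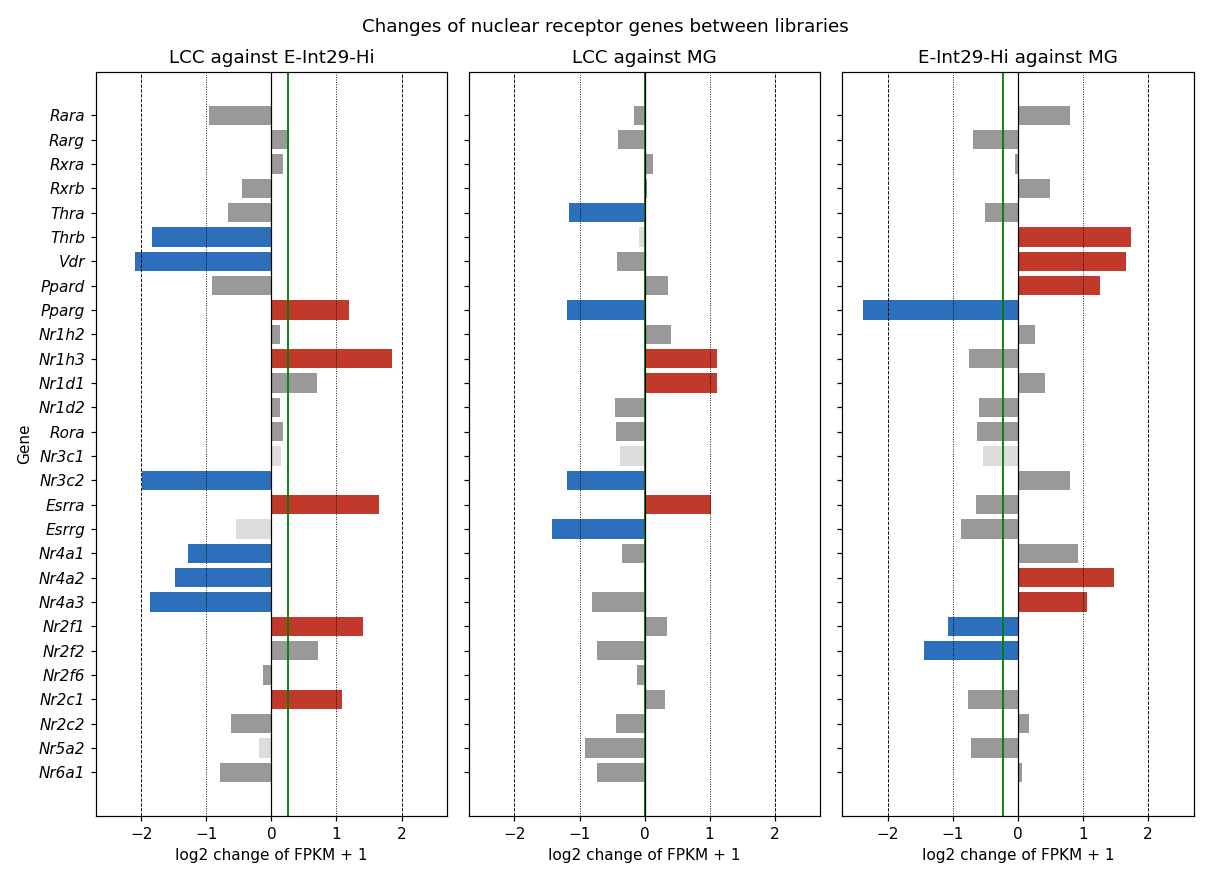
Log2 change of FPKM + 1 (horizontal axis) for the same 28 genes in each pair of libraries, with red and blue bars for differences of 2-fold or more up and down, dark grey for smaller ones and pale grey for genes that did not enter the comparison. Dotted and dashed lines mark 2-fold and 4-fold, and the green line marks the median of all genes. Only Vdr in the left panel and Pparg in the right panel pass a dashed line.

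The NR4A genes encode orphan receptors that are made within minutes to hours of many stimuli and act largely without a classical ligand. Their upstream sequences are shown because these 3 members were highest in the same library and because the genes are known for control by cyclic AMP through CREB sites. Below are the 250 bases before the start of each gene, 5′ to 3′ on its own strand, from RefSeq (build GRCm38.p6, which is not the mm9 build named for the files), with every match to the CREB core TGACG, or to its reverse complement CGTCA, in capitals.
Nr4a1, chr15:101266596-101266845, forward strand: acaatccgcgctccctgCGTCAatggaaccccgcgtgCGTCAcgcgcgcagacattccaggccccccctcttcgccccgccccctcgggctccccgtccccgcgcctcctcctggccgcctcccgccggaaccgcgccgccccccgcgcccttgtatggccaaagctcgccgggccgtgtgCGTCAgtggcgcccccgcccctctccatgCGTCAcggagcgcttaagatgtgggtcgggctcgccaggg
Nr4a2, chr2:57124004-57124253, reverse strand: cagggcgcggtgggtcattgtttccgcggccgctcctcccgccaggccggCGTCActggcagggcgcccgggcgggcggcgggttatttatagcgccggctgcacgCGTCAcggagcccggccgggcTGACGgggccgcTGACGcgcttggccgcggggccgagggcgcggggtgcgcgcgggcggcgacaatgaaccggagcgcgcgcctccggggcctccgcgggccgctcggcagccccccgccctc
Nr4a3, chr4:48045055-48045304, forward strand: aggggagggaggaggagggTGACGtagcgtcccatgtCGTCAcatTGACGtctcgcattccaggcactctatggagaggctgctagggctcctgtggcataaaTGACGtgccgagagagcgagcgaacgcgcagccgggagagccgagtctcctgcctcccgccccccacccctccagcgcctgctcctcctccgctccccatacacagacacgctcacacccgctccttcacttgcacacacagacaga
Nr4a1, Nr4a2 and Nr4a3 each held 4 such matches. Of 32851 promoter windows of this length, 17.8% held at least 1 match and 0.137% held 4 or more. Among the 59 windows of the 39 members with an entry, 13 held a match, and only the NR4A windows held 4. The full palindrome TGACGTCA, whose matches also count for the core, was in 1.55% of all windows and in 1 member window, that of Nr2e1. The nuclear receptor core AGGTCA, searched on both strands, was in 14.0% of all windows and in 11 of the 59 member windows, among them those of Nr1d2, Pparg, Rxra and Thrb. The CREB core was chosen after matches to several other motifs had been viewed. The cut of 4 equals the count that each NR4A window holds, so their passing it is not a separate result. Windows were not matched for base composition. A match is only a run of letters and does not show that a protein binds there.

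Nr4a1 (NUR77) had the highest FPKM of any member in each library, at 100.1 for LCC, 244 for E-Int29-Hi and 127 for MG, which placed it above 97.3%, 99.1% and 98.5% of genes. Nr4a3 (NOR1) stood at 27.5, 103 and 48.8 FPKM for LCC, E-Int29-Hi and MG. Nr4a2 (NURR1) stood at 13.1, 38.5 and 13.2 FPKM. All 3 were highest in E-Int29-Hi, and LCC and MG were nearly level for Nr4a2. On the log2 scale LCC stood below E-Int29-Hi by -1.28 for Nr4a1, -1.49 for Nr4a2 and -1.86 for Nr4a3. Relative to the shift of all genes these were -1.54, -1.75 and -2.13. E-Int29-Hi stood above MG by 0.93, 1.47 and 1.06 in that gene order. LCC against MG gave -0.34, -0.01 and -0.80, and the sign for Nr4a2 turned with median ratio scaling. Nr4a1 made up 71.1%, 63.3% and 67.3% of the NR4A sum in LCC, E-Int29-Hi and MG.

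The immediate early response genes, which like the NR4A genes are made at once after a stimulus, did not share 1 order. Of 16 such genes, 0 were 4-fold higher and 0 lower in LCC than E-Int29-Hi, and 0 were called in E-Int29-Hi against MG, with medians of -0.36 and -0.68. Fos, a subunit of the AP-1 factor, stood at 94.7, 369 and 604 FPKM across LCC, E-Int29-Hi and MG, and Fosb at 85.7, 153 and 401. Jun stood at 222, 209.5 and 355 FPKM, Junb at 329, 614 and 453, and Ier3, a stress-induced survival gene, at 956, 624 and 475. Fos and Fosb were called lower in LCC than MG (-2.66 and -2.21), and both were highest in MG. Egr3 (21.7, 46.4 and 14.9 FPKM) and Btg2 (35.1, 126 and 44.6), chosen after their values were seen, were highest in E-Int29-Hi as the NR4A genes were, and so were Junb, Ier2 and Atf3.

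Among the hormone and vitamin receptors, Vdr was the one called between LCC and E-Int29-Hi on the FPKM + 1 scale. Without a pseudocount the FPKM ratio was larger for Nr3c2 (8.17-fold) and Thrb (7.63-fold), both low in LCC, than for Vdr (4.65-fold). Vdr, the receptor of active vitamin D, stood at 8.62 FPKM for LCC, 40.1 for E-Int29-Hi and 11.9 for MG. The log2 change was -2.10 for LCC against E-Int29-Hi, -0.43 for LCC against MG and 1.67 for E-Int29-Hi against MG. E-Int29-Hi was high for this gene and the other libraries stood close together. Known targets of the vitamin D receptor had mixed orders. Of 7 that entered LCC against E-Int29-Hi, 0 were called, and their median of 0.99 is the value of Cyp27b1, which the receptor is known to repress. Of 4 in E-Int29-Hi against MG, 3 were called lower (median -2.79). Cyp24a1, the enzyme that degrades vitamin D and a classical target, stood at 0.0759 FPKM for LCC, 1.22 for E-Int29-Hi and 12.8 for MG. Trpv6, a calcium channel and another classical target, had the order of Vdr, at 0.0485, 2.11 and 0.703 FPKM (chosen after its values were seen). Spp1 (osteopontin) stood at 24.4, 13.1 and 256 FPKM, and Cd14, a co-receptor for bacterial lipopolysaccharide, at 51.1, 15.96 and 130.3. Cyp27b1, which makes active vitamin D, stood at 2.02, 0.520 and 0.388 FPKM.

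Thyroid hormone receptors repress their target genes without hormone and activate them with it. Thra, the alpha receptor, stood at 7.85 FPKM for LCC, 13.02 for E-Int29-Hi and 18.9 for MG. Thrb, the beta receptor, stood at 0.628, 4.79 and 0.728 FPKM. The beta gene was therefore near 1 FPKM or below except in E-Int29-Hi, where it made up 26.9% of the pair's FPKM, against 7.40% in LCC and 3.71% in MG. Its log2 change was -1.83 for LCC against E-Int29-Hi, just inside 4-fold, and -2.04 with median ratio scaling. Thra was lower in LCC than MG by -1.17. Exons of Thra overlap those of Nr1d1 on the opposite strand in GENCODE M21, and strand use in counting was not given in the sources used here, so reads from the shared stretch cannot be told apart.

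Of 6 thyroid hormone targets, 3 entered LCC against E-Int29-Hi and 1, Hr, was called lower. Hr (hairless), a corepressor of the thyroid hormone and vitamin D receptors, stood at 7.82 FPKM for LCC, 68.4 for E-Int29-Hi and 23.8 for MG, the same order as Vdr. The remaining targets did not follow Thrb. Klf9, a zinc finger factor, stood at 17.5, 21.98 and 40.6 FPKM, Me1 (malic enzyme) at 11.4, 9.15 and 20.5, and Thrsp, a lipogenic gene, at 0.423, 0.741 and 2.06. Crym, which binds thyroid hormone in the cytosol, was listed at 0 in LCC and stood at 0.362 FPKM in E-Int29-Hi and 7.91 in MG.

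Corticosteroid receptors are held by HSP90 chaperones until they bind cortisol-like steroids or aldosterone. Nr3c1, the glucocorticoid receptor, stood at 27.1 FPKM for LCC, 24.4 for E-Int29-Hi and 35.6 for MG, but its LCC value carries the status FAIL and it entered no count. Nr3c2, the mineralocorticoid receptor, stood at 0.709, 5.80 and 2.91 FPKM. E-Int29-Hi was high and LCC low for Nr3c2, with a log2 change of -1.99 for LCC against E-Int29-Hi and of -1.19 against MG. The chaperone genes Hsp90ab1 (974, 564 and 658 FPKM), Hsp90aa1 (193, 192 and 218), Ptges3 (85.4, 72.7 and 58.5) and Fkbp4 (65.0, 58.0 and 39.8) were abundant in every library. Hsd11b1, which regenerates active glucocorticoid, stood at 8.78 FPKM for LCC, 1.22 for E-Int29-Hi and 5.83 for MG and was called higher in LCC than E-Int29-Hi (2.14). It was the only call in that comparison among 10 genes of a list that joins enzymes and transporters of steroids, vitamin D and thyroid hormone with the chaperones above (median 0.19, set by the chaperones Fkbp4 and Ptges3). Crym and Cyp24a1 were called lower, and 0 genes higher, in LCC against MG (12 entered, median 0.02) and in E-Int29-Hi against MG (11 entered, median -0.26).

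Among genes known to respond to glucocorticoid, of 13 that entered, 6 were called higher in E-Int29-Hi than MG and 0 lower, with a median of 1.45. These were the metallothionein genes Mt1 and Mt2, Errfi1, an inhibitor of EGF receptor signalling, Pdk4, a mitochondrial kinase, Ddit4, an inhibitor of mTOR, and Lcn2, a siderophore-binding protein. In LCC against E-Int29-Hi, 4 of 13 were called lower (Mt1, Mt2, Errfi1 and Lcn2) and 0 higher. Mt1 stood at 412 FPKM for LCC, 4624 for E-Int29-Hi and 559.97 for MG, and Lcn2 at 55.2, 2148 and 363. Errfi1 stood at 235 FPKM for LCC, 1708 for E-Int29-Hi and 316 for MG, and Ddit4 at 248, 484 and 64.5. By contrast Fkbp5 and Tsc22d3, among the most used reporters of the receptor, were lowest in E-Int29-Hi, at 12.5, 4.57 and 10.6 FPKM and at 12.5, 5.96 and 9.80 FPKM (both chosen after their values were seen). Mt1 and Mt2 also respond to metals, and Ddit4 and Lcn2 to stress and inflammation.

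Receptors of retinoic acid were present as 2 main forms. Rara stood at 22.5 FPKM for LCC, 44.8 for E-Int29-Hi and 25.4 for MG, Rarg at 17.4, 14.2 and 23.5, and Rarb at 0.656, 0.479 and 0.516. Rara thus made up 55.5%, 75.4% and 51.4% of the branch, and Rarg 42.9%, 23.8% and 47.5%. E-Int29-Hi held more of the alpha and less of the gamma form than the other libraries, although no retinoic acid receptor reached a 2-fold difference on the deposited scale. With median ratio scaling or TPM, Rara was over 2-fold lower in LCC than E-Int29-Hi.

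The retinoid X receptors, obligate partners of many members, varied by less than 2-fold across libraries in their abundant forms. Rxra stood at 10.1, 8.82 and 9.15 FPKM across LCC, E-Int29-Hi and MG, Rxrb at 13.5, 19.0 and 13.2, and Rxrg at 0.0912, 0.0710 and 0.149. The order of the libraries for Rxra turned with scaling: LCC was highest as deposited, E-Int29-Hi with median ratios and MG with TPM.

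Genes of retinoid supply reached log2 differences of 5.29, in Aldh1a3. Of 12 that entered LCC against E-Int29-Hi, 3 were called higher and 0 lower (median 0.65). Aldh1a3, which makes retinoic acid, stood at 83.5 FPKM for LCC, 1.17 for E-Int29-Hi and 71.8 for MG. Crabp1, which carries retinoic acid in the cytosol, stood at 29.4, 0.0902 and 3.10 FPKM, and Stra6, a retinol transporter, at 4.68, 0.201 and 2.12. Fabp5, a lipid carrier, was highest in E-Int29-Hi, at 30.6, 71.6 and 21.96 FPKM. Rdh10, which makes retinaldehyde, stood at 21.3, 10.5 and 19.0 FPKM. Among 10 genes induced by retinoic acid, Stra6 and Rarres2, which encodes chemerin (120.3, 7.16 and 52.3 FPKM), were called higher in LCC than E-Int29-Hi and 0 lower. Tgm2 (transglutaminase) stood at 94.4, 64.3 and 260.1 FPKM and Dhrs3, which reduces retinaldehyde, at 11.1, 16.4 and 23.3. Against MG, 0 of the 10 were called in LCC.

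The PPARs bind fatty acids and their derivatives. Pparg, which drives fat cell formation, stood at 5.94 FPKM for LCC, 2.04 for E-Int29-Hi and 14.8 for MG. Ppard, the widely expressed form, stood at 22.8, 43.6 and 17.6 FPKM, and Ppara at 0.148, 0.130 and 0.170. The order of the libraries was opposite for Pparg and Ppard: Pparg was lowest and Ppard highest in E-Int29-Hi. Pparg gave -2.38 for E-Int29-Hi against MG, 1.19 for LCC against E-Int29-Hi (0.98 with median ratio scaling) and -1.19 for LCC against MG. Ppard gave -0.91, 0.35 and 1.26 for LCC against E-Int29-Hi, LCC against MG and E-Int29-Hi against MG, and its sign for LCC against MG turned with TPM. Of the branch's FPKM, Pparg made up 20.6% for LCC, 4.45% for E-Int29-Hi and 45.4% for MG.

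Markers of fat cells, where Pparg is abundant, were mostly low. The 8 genes summed to 6.25 FPKM for LCC, 19.7 for E-Int29-Hi and 43.9 for MG, with Adipoq at 1.12 FPKM in MG and 0.019 in LCC, and Cfd, Lep, Plin1 and Retn listed at 0 in LCC. Lipe, highest in E-Int29-Hi at 5.71, 17.2 and 14.2 FPKM, made up most of the first 2 sums, and Car3 stood at 18.9 FPKM in MG. Endothelial markers summed to 115 FPKM for LCC, 113 for E-Int29-Hi and 548 for MG, with 4 of 8 called lower in each of the first 2 libraries against MG and none at 0. Luminal markers summed to 3899, 323 and 2032 FPKM, with 6 of 8 called lower in E-Int29-Hi than MG and none at 0. Gata3, also on that list, was highest in E-Int29-Hi, at 17.5, 47.2 and 20.7 FPKM. Elf5 was lower in LCC than E-Int29-Hi (-0.99). Krt8 and Krt18 carried the LCC sum: against MG the luminal median was -1.06, with Elf5 and Prlr called lower in LCC and 0 higher. The part of these cell types in the Pparg difference was not tested.

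Known PPAR targets had calls in both directions. Of 16 that entered LCC against E-Int29-Hi, 2 were called higher and 1 lower (median -0.06). Of 18 in each other comparison, 2 were higher and 1 lower in LCC than MG (median -0.17), and 2 higher and 2 lower in E-Int29-Hi than MG (median 0.09). Pdk4, a target of several PPARs and of the glucocorticoid receptor, stood at 231 FPKM for LCC, 254 for E-Int29-Hi and 11.7 for MG. The lipid droplet genes Plin2 (526, 63.4 and 136 FPKM) and Hilpda, listed as 2310016C08Rik (162, 90.0 and 26.7), were highest in LCC. The fatty acid handling genes Fabp4 (60.4, 276 and 845 FPKM), Cd36 (41.6, 30.9 and 152) and Lpl (23.5, 2.97 and 49.97) were highest in MG, as was Pparg. Ucp2, a mitochondrial carrier, was highest in E-Int29-Hi (111, 406 and 91.1 FPKM), as was Ppard.

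**Figure D3:**
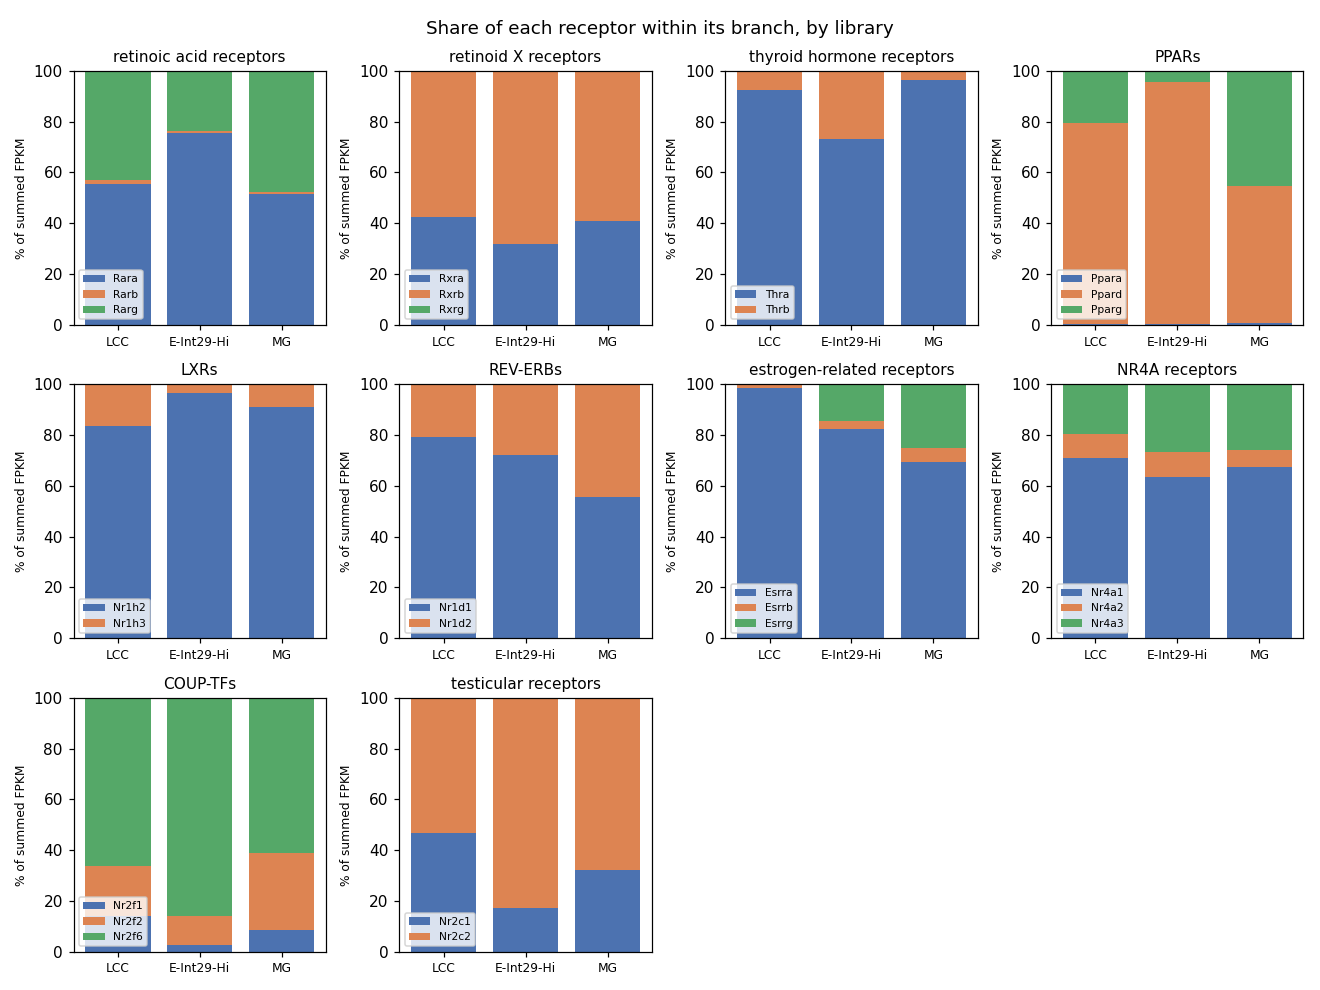
Share of each receptor in the summed FPKM of its branch (vertical axis, percent), with 1 bar per library and 10 branches. E-Int29-Hi stands apart by a larger share of Rara, Thrb, Ppard, Nr2f6 and Nr2c2, and the Pparg share runs from 4.45% in E-Int29-Hi to 45.4% in MG.

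The liver X receptors sense oxysterols and raise cholesterol export. Nr1h2 (LXR beta) was even, at 34.9 FPKM for LCC, 31.7 for E-Int29-Hi and 26.2 for MG. Nr1h3 (LXR alpha), known from macrophages, liver and fat, stood at 6.83, 1.16 and 2.62 FPKM. LCC was highest for Nr1h3, by 1.86 against E-Int29-Hi and by 1.11 against MG, and its share of the pair was 16.4%, 3.51% and 9.09%. With TPM its excess over MG was under 2-fold. The 8 macrophage and monocyte markers summed to 387 FPKM for LCC, 125 for E-Int29-Hi and 208 for MG, and none was at 0. Lyz2 made up 232 FPKM of the LCC sum. Csf1r, Cd68, Itgam and Lyz2 were at least 2-fold higher in LCC than in each other library, whereas Cd14 and Mrc1 were highest in MG. Both of the latter were at least 2-fold lower in LCC than MG. The list median was 1.42 for LCC against E-Int29-Hi, with 5 of 8 at least 2-fold higher and 0 lower. Against MG it was 1.07, with 4 higher and 2 lower. Of these 8, 1 (Itgam) was called higher in LCC than E-Int29-Hi and 1 (Lyz2) higher than in MG, with 0 called lower, and their part in the Nr1h3 difference was not tested.

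LXR targets had few calls, in both directions. Of 12 that entered each comparison, 1 was called higher and 1 lower in LCC against E-Int29-Hi (median 0.13). In LCC against MG, 0 were higher and 1 lower (median -0.91). In E-Int29-Hi against MG, 0 were higher and 2, Lpl and Scd1, lower (median -0.66). The list includes Nr1h3 itself. Abca1, the cholesterol exporter, stood at 7.41 FPKM for LCC, 13.7 for E-Int29-Hi and 50.7 for MG, and Apoe, the lipoprotein it loads, at 133, 1541 and 435. Scd1, a desaturase, stood at 17.6, 6.32 and 67.6 FPKM and Pltp, a phospholipid carrier, at 31.6, 90.7 and 54.0. Enzymes that make or break oxysterols gave 0 calls in any comparison. Ch25h stood at 10.96, 5.14 and 5.53 FPKM, Hsd3b7 at 23.0, 11.5 and 29.0, Cyp7b1 at 4.51, 1.63 and 0.841, and Cyp39a1 at 1.47, 1.27 and 2.74. Cyp27a1 (0.0372, 2.47 and 1.57 FPKM) and Cyp46a1 (listed at 0 in LCC, then 2.51 and 0.702) were highest in E-Int29-Hi (both chosen after their values were seen).

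REV-ERBs and RORs bind the same DNA element in clock genes, the former as repressors and the latter as activators. Nr1d1 (REV-ERB alpha) was the second most abundant member in LCC, at 98.2 FPKM, against 60.3 in E-Int29-Hi and 44.9 in MG. Nr1d2 (REV-ERB beta) stood at 25.6, 23.2 and 35.6 FPKM. LCC was thus highest for the alpha gene and not for the beta gene, and Nr1d1 made up 79.3%, 72.3% and 55.8% of the pair. The log2 change of Nr1d1 was 1.11 against MG and 0.69 against E-Int29-Hi, and with TPM the former was under 2-fold. Thra, whose exons overlap those of Nr1d1, was lowest in LCC. Rora stood at 7.42, 6.41 and 10.5 FPKM, and Rorb at 0.199, 0.0213 and 0.169.

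Of 9 REV-ERB and ROR targets that entered LCC against MG, 1 (Avpr1a, a vasopressin receptor at 1.37, 1.96 and 9.88 FPKM) was called lower and 0 higher, with a median of -1.11. The list includes Nr1d1 itself. Clock stood at 8.63 FPKM for LCC, 17.6 for E-Int29-Hi and 20.3 for MG, and Npas2, its paralog, at 0.311, 0.0613 and 3.37. Arntl, the partner of Clock and a direct REV-ERB target, stood at 6.21, 3.01 and 14.6 FPKM, and Cry1 at 6.87, 18.8 and 20.5 (both chosen after their values were seen). Nfil3 (30.3, 116 and 33.3 FPKM) and Bhlhe41 (51.3, 122 and 28.3), repressors in the clock, were highest in E-Int29-Hi.

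The estrogen-related receptors bind no known steroid and drive mitochondrial genes together with PGC-1 coactivators. Esrra stood at 10.4 FPKM for LCC, 2.62 for E-Int29-Hi and 4.64 for MG, with log2 changes of 1.66 and 1.02 for LCC against the other libraries. With TPM the latter was below 2-fold. Esrrg was listed at 0 in LCC and stood at 0.460 FPKM for E-Int29-Hi and 1.67 for MG, and Esrrb at 0.154, 0.104 and 0.368. Esrra therefore made up 98.5%, 82.3% and 69.5% of the branch. Esrra exons overlap those of Trmt112 on the opposite strand in GENCODE M21, so part of its reads may belong to that gene. Ppargc1b (PGC-1 beta) had another order. It stood at 0.352, 5.63 and 0.844 FPKM and was the only one of 15 coactivators called in LCC against E-Int29-Hi (-2.29).

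COUP transcription factors are orphan receptors of mesenchyme, venous endothelium and nervous tissue. Nr2f1 stood at 2.73 FPKM for LCC, 0.411 for E-Int29-Hi and 1.95 for MG, and Nr2f2 at 3.77, 1.89 and 6.88. Both were lowest in E-Int29-Hi, by -1.07 and -1.45 against MG, and with median ratio scaling Nr2f1 was at -0.92, within 2-fold. Nr2f6 was even, at 12.7, 14.0 and 13.8 FPKM. Fibroblast markers had the same low library: their 8 genes summed to 1425 FPKM for LCC, 139 for E-Int29-Hi and 3075 for MG. Of these, 8 of 8 were called lower in E-Int29-Hi than MG and none was at 0. Their median for LCC against MG was -1.03, whereas Nr2f1 was highest in LCC. The luminal sum was also lowest in E-Int29-Hi, at 323 FPKM. Endothelial sums were 115, 113 and 548 FPKM across LCC, E-Int29-Hi and MG. The part of these cell types in the Nr2f1 and Nr2f2 differences was not tested.

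The genes highest in E-Int29-Hi came with the highest basal markers. Basal and myoepithelial markers summed to 408 FPKM for LCC, 5433 for E-Int29-Hi and 392.3 for MG, with 8 of 8 called lower in LCC than E-Int29-Hi and 6 of 8 higher in E-Int29-Hi than MG, and none at 0. Krt5 and Krt14 made up most of the LCC sum, and against MG the basal median was -1.19, with Myh11 and Oxtr called lower in LCC and 0 higher. The part of basal cells in the differences of Vdr, Thrb, Nr3c2, Ppard and the NR4A genes was not tested. The labelled cells of LCC came from the lung, and 8 lung epithelial markers summed to 629.7 FPKM there, against 10.1 in E-Int29-Hi and 3.14 in MG. In LCC 4 of 8 were called higher than E-Int29-Hi and 5 higher than MG, and Nkx2-1 was listed at 0 outside LCC. Scgb1a1 made up 572 FPKM of the LCC sum, and Nkx2-1 stood at 0.177 FPKM in LCC. Foxj1 went the other way between LCC and E-Int29-Hi, at 3.69 and 7.75 FPKM, with 1.33 in MG. It made up most of the E-Int29-Hi sum. The part of lung cells in the LCC values, Nr1h3 and Esrra included, was not tested. The 8 lymphocyte markers summed to 6.44, 5.29 and 14.0 FPKM.

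The remaining orphan receptors were modest in level. Nr2c1 (TR2) stood at 5.62 FPKM for LCC, 2.12 for E-Int29-Hi and 4.31 for MG, and Nr2c2 (TR4) at 6.37, 10.3 and 9.003. The pair shifted in opposite directions between LCC and E-Int29-Hi, with Nr2c1 making up 46.9% of the pair in LCC and 17.1% in E-Int29-Hi. Exons of Nr2c2 overlap those of Mrps25 on the opposite strand in GENCODE M21, so part of its reads may belong to that gene. Exons of Nr2f6, Nr3c2, Rarb and Rora also overlap other genes on the opposite strand there. Nr6a1, known from germ cells, stood at 1.68, 3.64 and 3.45 FPKM, and Nr5a2 (LRH-1) at 0.247, 0.426 and 1.36.

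Of the members, 15 stayed under 1 FPKM in every library, with 0.656 FPKM (Rarb in LCC) as their highest value. Nr0b1 was listed at 0 in all 3 libraries. Esr2, Nr1h4, Nr1h5 and Nr2e3, together with Esrrg above, were listed at 0 only in LCC. Over all genes, 6871 were listed at 0 for LCC, 4984 for E-Int29-Hi and 3184 for MG. In these counts over all genes, an estimate that failed may also be listed at 0. The members listed at 0 all carry the status OK. Depth was not given, so no fold is given for these members, and the 2-fold count of Esrrg in LCC against MG rests on such a 0. Nr1h5 stood at 0.417 FPKM in E-Int29-Hi and 0.480 in MG. Esr2, the beta estrogen receptor, stood at 0.0485 and 0.0465 FPKM in those libraries. Hnf4a, of liver and gut, stood at 0.0793 FPKM in LCC and 0.246 in MG and was listed at 0 in E-Int29-Hi. Hnf4g, Nr0b2, Nr2e1 and Nr5a1 stood above 0 only in MG, at 0.00889 to 0.0926 FPKM.

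Coregulators, which the receptors share, had few calls. Of 15 coactivators, 0 were called higher and 1 lower in LCC against E-Int29-Hi (median -0.38), and 0 were called of 15 in LCC against MG and of 16 in E-Int29-Hi against MG (medians -0.53 and -0.17). Pnrc1 stood at 146 FPKM for LCC, 106 for E-Int29-Hi and 210.4 for MG, Carm1 at 32.4, 25.5 and 19.99, Pnrc2 at 25.6, 18.8 and 25.4, and Ncoa4 at 16.3, 22.4 and 23.5. Of 11 corepressors, 3 were at least 2-fold higher in E-Int29-Hi than MG and 0 lower, and 1, Hr, was called lower in LCC than E-Int29-Hi. Nrip1 (RIP140) stood at 30.8, 109 and 48.0 FPKM, whereas Ncor1 stood at 31.7, 38.2 and 52.1.

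**Figure D4:**
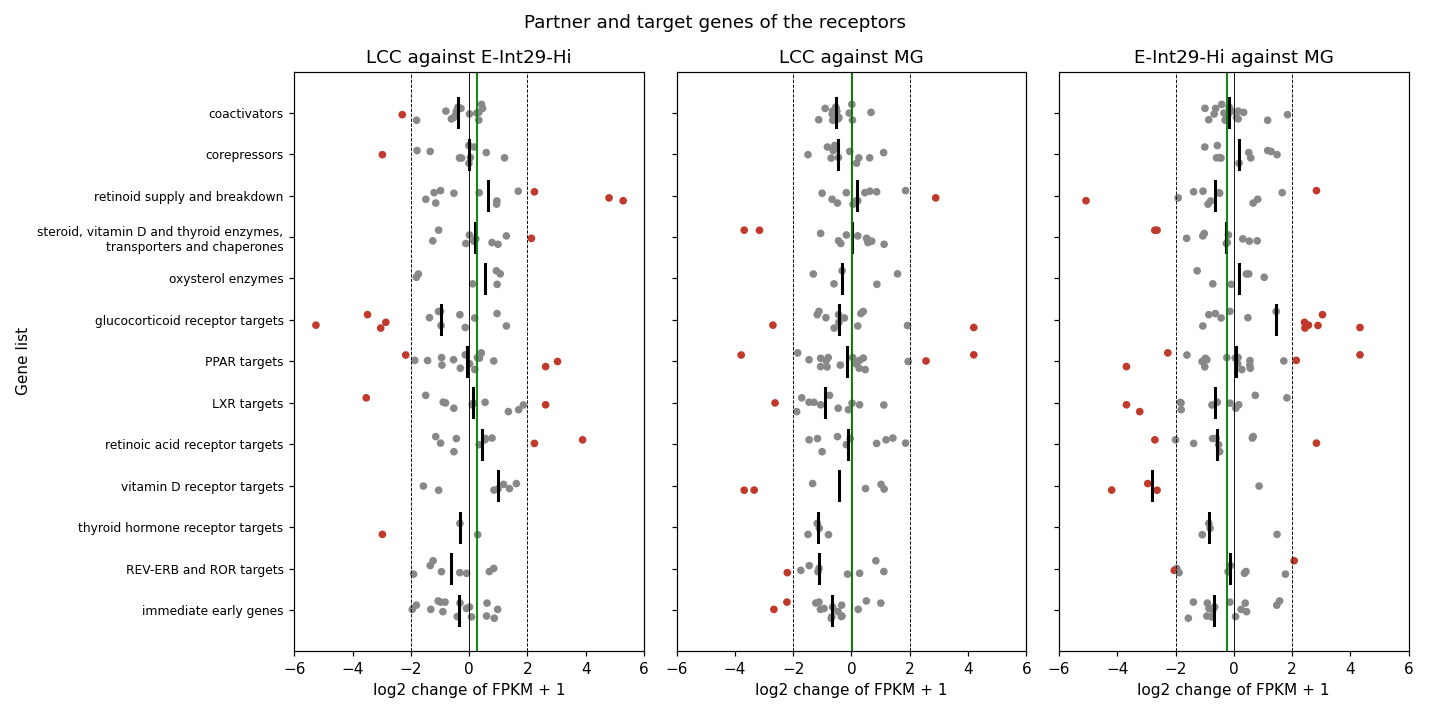
Log2 change of FPKM + 1 (horizontal axis) of each partner or target gene that entered a comparison, by list, with red points for differences of 4-fold or more, black bars for list medians and a green line for the median of all genes. The glucocorticoid target median is 1.45 in the right panel and the vitamin D target median there is -2.79, over 4 genes.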

How the data were processed

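Libraries were TruSeq preparations of bead-selected poly(A) RNA, run on an Illumina machine, per the labels' protocols. Each deposited table holds, per gene, the FPKM computed by the authors and the status of that estimate. The submitters' processing notes name TopHat 1.4.1, Cufflinks 1.3.0 and build mm9 but assign them no role. Annotation release, read counts and depth were not stated in the sources used.

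Only the 22188 models with status OK throughout were compared. Where a name stood on several models, the one with the highest summed FPKM was kept, which left 22077 names. Changes are log2((FPKM + 1)/(FPKM + 1)) for genes reaching 1 FPKM in either library, called at 4-fold. Groups were taken from the labels, and no test was made, as no group has replicates. Each member at 1 FPKM or more in a library is named, and of each gene list the 4 highest genes and any called gene, except that a few genes are counted but not reported here. The members and lists were chosen with earlier results of these data known. Of the 22378 gene identifiers, 20773 matched the symbol table, which was used only to find list symbols under older names. Alternatives were other pseudocounts, filters and scalings, summed models, every status, and the 2-fold rule. The steps were tested only on simulated data built from genes with higher FPKM in MG, so calls on low members were not covered. Python 3.11.15, numpy 2.4.6, pandas 2.3.3 and matplotlib 3.10.9 were used.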

Additional observations from a re-analysis of the deposited data

How the results depend on the processing

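No paired analysis was possible because each group has 1 library, and for the same reason no replicate could be left out. With a pseudocount of 0.1, members called numbered 2 higher and 3 lower for LCC against E-Int29-Hi, 2 lower for LCC against MG, and for E-Int29-Hi against MG 1 higher and 2 lower. All-gene calls moved too, to 9.29% higher and 7.80% lower, 2.68% and 6.55%, and 4.19% and 8.76%. With a pseudocount of 5, 0 were called lower in LCC against E-Int29-Hi and 0 in E-Int29-Hi against MG. Median ratio scaling was made over all genes above 0 or (added after the data were seen) over genes at 1 FPKM or more. Both gave 4 of 26 lower in LCC against E-Int29-Hi, beside 5.72% and 5.63% of all genes. TPM gave 1 higher and 4 lower for LCC against E-Int29-Hi (30 entered) and 1 lower for LCC against MG (31 entered). For E-Int29-Hi against MG it gave 1 higher and 1 lower (31 entered). The shares over all genes with TPM were 5.10% higher and 6.82% lower, 1.09% and 6.37%, and 2.59% and 6.98% in that order. The 2-fold rule gave 5 higher and 7 lower, 3 higher and 4 lower, and 5 higher and 3 lower in the order of the report. The other filters, summed models and every status left the 4-fold counts as reported. The members' median for E-Int29-Hi against MG was 0.04 as deposited, 0.33 with median ratios, -0.18 with TPM and -0.05 with no filter. For LCC against E-Int29-Hi, calls over all genes were 564 higher and 528 lower as deposited, and 451 and 700 with median ratio scaling. For LCC against MG they were 166 and 327, and 157 and 919 with TPM. For E-Int29-Hi against MG they were 323 and 494, and 465 and 356 with median ratios or 375 and 1011 with TPM. Without read counts, the precision of members under 1 FPKM is unknown.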

Other observations

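Esr2 and Nr2e3, both under 0.1 FPKM, stood in E-Int29-Hi over MG at ratios of 1.04 and 1.05. Among 1184 genes between 0.001 and 0.1 FPKM in both libraries, 1.05 was the commonest ratio, taken by 129 genes after rounding to 2 decimals.

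The glucocorticoid and mineralocorticoid receptors differed in how evenly they were spread. Nr3c2 made up 2.55% of the FPKM of the pair for LCC, 19.2% for E-Int29-Hi and 7.55% for MG, with the doubtful status of the Nr3c1 value in LCC applying to the first share.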
